A study of Drosophila melanogaster and Drosophila simulans and Drosophila yakuba with 12 samples.

Results

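Late larvae and prepupae of Drosophila simulans males were compared through their microRNAs (miRNAs), in 3 of the 12 small RNA libraries of a study of 3 Drosophila species. The members were chosen by species, sex and stage as labelled: 1 library of male larvae and 2 libraries of male prepupae. All flies were of strain 14021-0251.167, and the labels give no altered gene or drug treatment for any group. Both stages were reared on corn meal medium with bromophenol blue, a dye that colours the gut of feeding larvae, and whole animals were sexed before collection. Larvae were wandering animals with a dark blue gut, which the labels date to 18 h ahead of the puparium, the hardened larval skin in which metamorphosis takes place. Prepupae were white animals within 1 h after puparium formation. The larval library came from 1 RNA sample, and both prepupal libraries were technical libraries of 1 other RNA sample, so that no stage had a second RNA sample and no stage difference could be tested within D. simulans. Each insert carried a 4-base index at its 5′ end, and 4 indexed samples were pooled before the 3′ adaptor was added. Prepupal library 1 had the index of the larval library and another pool, and prepupal library 2 had another index and the pool of the larval library. The 4 libraries of D. melanogaster males (strain Oregon-R) came from 2 larval and 2 prepupal RNA samples, and the 3 of D. yakuba males (strain 14021-0261.00) from 1 RNA sample of each stage. They were used for comparison.

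A miRNA is cut from the stem of a hairpin precursor, and a mature RNA can come from its 5′ arm (5p) or its 3′ arm (3p). The mature RNA guides silencing of messenger RNAs, mainly through its seed, bases 2 to 8 from its 5′ end. At puparium formation a pulse of the steroid hormone ecdysone starts metamorphosis. The let-7 complex, a single transcript that carries let-7 together with miR-100 and miR-125, is switched on around this time, and let-7 sets the timing of later development.

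The sequences of the arms that lay past 2-fold between larvae and prepupae in both prepupal libraries are printed first, with relatives that share a seed and miR-282-5p, whose counting intervals lay above 1 in both comparisons. Each is the read sequence with the most reads over the 3 D. simulans libraries, 5′ to 3′, with the seed in capitals, as read from the deposited alignments.
let-7-5p: uGAGGUAGuagguuguauagua
miR-125-3p: aCAAGUUUugaucuccgguau
miR-92b-3p: aAUUGCACuagucccggccu
miR-92a-3p: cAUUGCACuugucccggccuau
miR-2b-3p: uAUCACAGccagcuuugaggagcg
miR-2a-3p: uAUCACAGccagcuuugaugagcu
miR-13b-3p: uAUCACAGccauuuugacgaguu
miR-11-3p: cAUCACAGucugaguucuugcu
miR-970-3p: uCAUAAGAcacacgcggcuau
miR-958-5p: aGUAGAAUagcaggcuuaucaca
miR-284-5p: cCUGGAAUuaaguugacuguguag
miR-282-5p: uAGCCUCUacuaggcuuugucu
The authors' D. melanogaster loci place let-7, miR-125, miR-2a and miR-2b on arm 2L, miR-958 and miR-282 on 3L, miR-92a, miR-92b, miR-11 and miR-284 on 3R, miR-970 on X, and the copies of miR-13b on 3R and X. The genome build of these loci is not given in the sources used here. miR-92a-3p and miR-92b-3p have 1 seed in common, and miR-2a-3p, miR-2b-3p, miR-13b-3p and miR-11-3p another.

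Reads on D. simulans hairpins numbered 4762 in the larval library, 23502 in prepupal library 1 and 5086 in prepupal library 2. Of 260 annotated mature arms on 136 hairpins, 74, 106 and 75 had a read. A count of 0 thus allowed a share of up to 0.0630% of the reads in larvae, 0.0128% in prepupal library 1 and 0.0590% in prepupal library 2. Reads that fit D. simulans hairpins and not those of D. melanogaster numbered 38, 127 and 27, against 1, 0, 0 and 1 in the D. melanogaster male libraries. Reads that fit D. melanogaster hairpins only numbered 76, 410 and 52, most of them on miR-305-5p and miR-281-5p. miR-305-3p, whose arm differs between the species, gave 14, 48 and 8 reads of the D. simulans form and 0, 1 and 0 of the D. melanogaster form, whereas D. melanogaster males gave 1, 0, 0 and 1 of the former and 124, 9, 144 and 34 of the latter. All levels below are shares of a library's miRNA reads, and all ratios are ratios of such shares, with exact 95% intervals that cover counting error only. In whole animals, fewer cells of a type and less RNA per cell cannot be told apart.

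**Figure D1:**
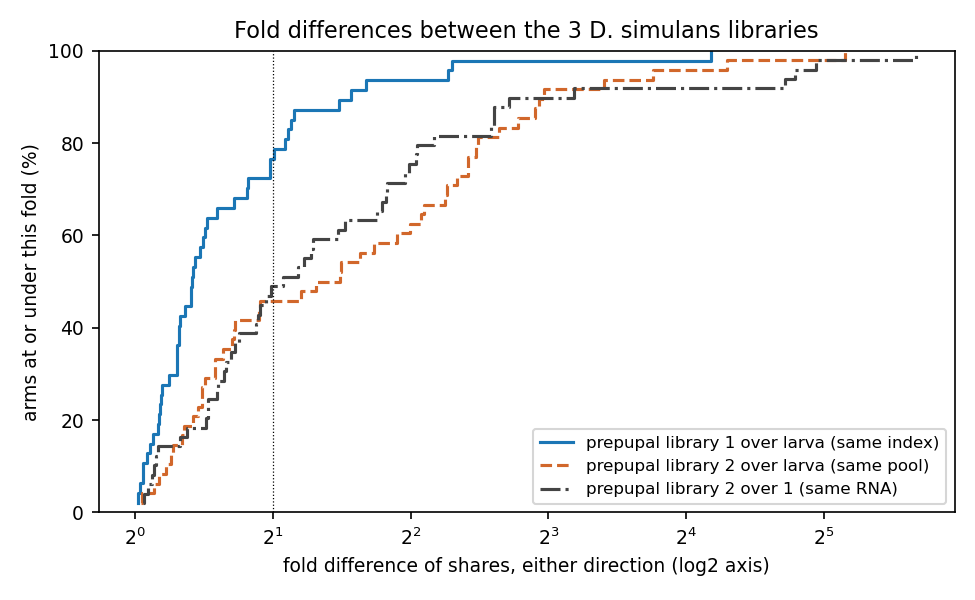
Cumulative share of mature arms (vertical axis, %) at or under each fold difference of shares in either direction (horizontal axis, log2 axis), for the 3 pairs of D. simulans male libraries. The pair that shares an index, larva and prepupal library 1, lies leftmost with a median of 1.33-fold, and the 2 libraries of 1 RNA have a median of 2.11-fold.

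The larval library was nearer to prepupal library 1 than the 2 prepupal libraries of 1 RNA were to each other. Of the 49 arms with at least 20 reads in all, 47 gave a ratio of prepupal library 1 to larvae, with a median fold in either direction of 1.33. For library 2 over larvae 48 gave one, with a median of 2.65, and for the 2 prepupal libraries all 49, with a median of 2.11. Past 2-fold lay 11 arms (22.4%) in prepupal library 1 over larvae, 6 higher and 5 lower. In prepupal library 2 over larvae it was 26 arms (53.1%), 15 higher and 11 lower. Between the 2 libraries of 1 RNA it was 25 arms (51%), 13 higher and 12 lower in library 2, and that split became 10 and 19 under TMM scaling or without the 3 arms with the most reads, and 12 and 16 under RLE scaling. On D. melanogaster hairpins, which gave 52 arms, the 3 medians were 1.33, 2.32 and 2.03. In D. yakuba, where the larval library likewise shared its index with prepupal library 1, the medians over 38 arms were 1.40 for that pair, 1.76 for the 2 libraries of 1 RNA and 2.37 for the third pair. With 1 RNA sample of each stage, the stage, the index and the pool cannot be told apart in either ratio alone, so both are given throughout.

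Arms past 2-fold in the same direction in both prepupal libraries were 5 higher (10.2%) and 2 lower (4.08%) of 49. The 5 higher were let-7-5p, miR-125-3p, miR-92b-3p, miR-2b-3p and miR-970-3p, and the 2 lower were miR-958-5p and miR-284-5p. The same 7 arms were found on D. melanogaster hairpins. Each of the 5 higher arms had 5 reads or fewer in larvae. They passed the minimum of 20 reads, summed over the 3 libraries, through their prepupal reads, which tilts the split towards higher arms. Both ratios of an arm also share its larval count, so the 2 ratios are not independent. With the 2 prepupal libraries summed, 10 arms (20.4%) lay past 2-fold, 8 higher and 2 lower.

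**Figure D2:**
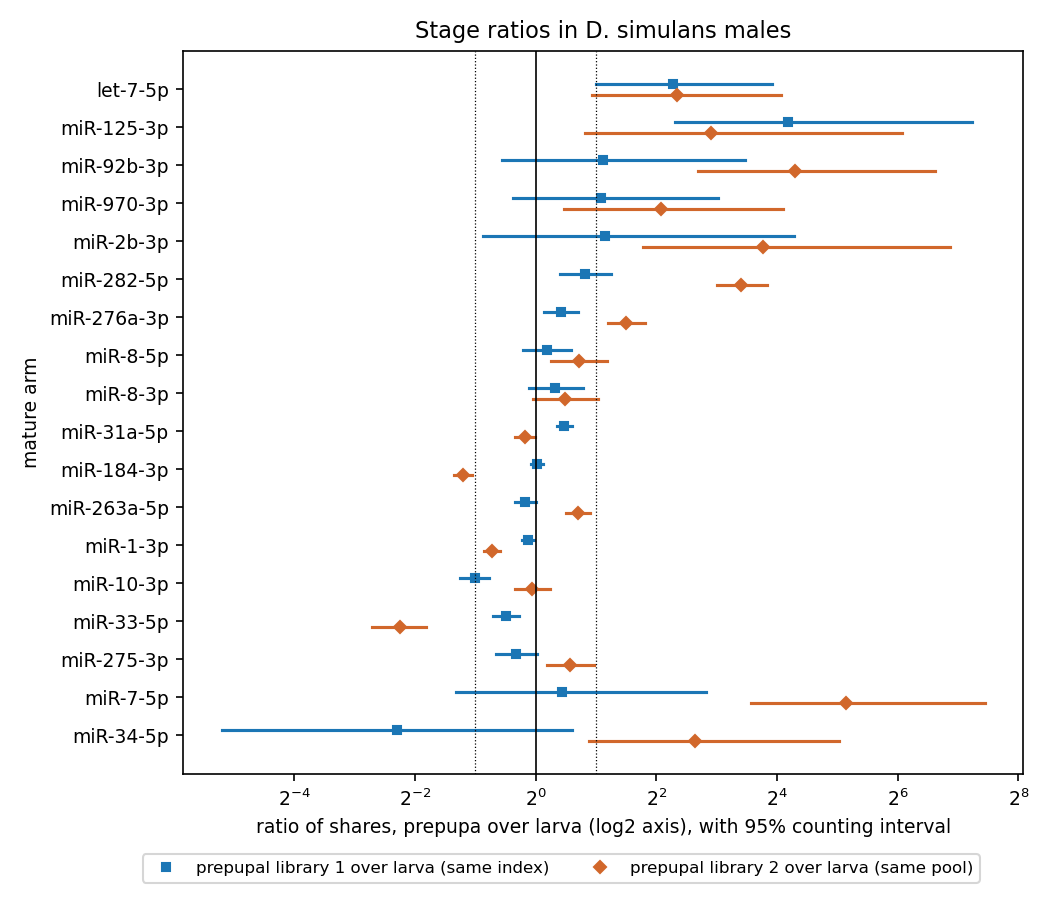
Ratio of shares, prepupa over larva, for 18 mature arms (vertical axis) on a log2 axis, with squares for prepupal library 1, diamonds for prepupal library 2 and lines for exact 95% counting intervals. Dotted lines mark 2-fold. let-7-5p and miR-125-3p lie right of 2-fold in both libraries, while miR-7-5p and miR-34-5p do so in prepupal library 2 but not in prepupal library 1.

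let-7-5p, the timing miRNA of the complex, had 5 reads in larvae (0.105%), 119 in prepupal library 1 (0.506%) and 27 in prepupal library 2 (0.531%). Both prepupal libraries lay above the larval one and next to each other. The ratio to larvae was 4.82 (2.01 to 15.1) for library 1 and 5.06 (1.92 to 16.8) for library 2, and the ratio between the 2 libraries was 1.05 (0.663 to 1.60). let-7-5p was the arm of the 7 whose 2 ratios lay nearest to each other.

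miR-125-3p, the arm opposite to the usual guide strand of miR-125, had 2 reads in larvae (0.042%), 179 in prepupal library 1 (0.762%) and 16 in prepupal library 2 (0.315%). Its ratio to larvae was 18.1 (4.95 to 151) for library 1 and 7.49 (1.76 to 67.2) for library 2. Both intervals lay above 1, but the 2 prepupal libraries of 1 RNA also stood apart, with a ratio of 0.413 (0.231 to 0.689). miR-100-5p had 9 reads in prepupal library 1 and 0 in the other libraries. let-7-3p, miR-100-3p and miR-125-5p each had 1 read, in prepupal library 1. These 4 arms fell under the minimum of 20 reads, and the let-7 complex thus gave ratios for 2 of its 6 arms. Summed over all 6 arms, the complex held 0.147% of the reads in larvae, 1.32% in prepupal library 1 and 0.845% in prepupal library 2. The summed ratio was 8.97 (4.30 to 22.5) for library 1 and 5.75 (2.57 to 15.2) for library 2, and it lay between 3.60 and 11.1 over both libraries and 4 scalings.

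miR-92b-3p, known as a regulator of the muscle factor Mef2, had 3 reads in larvae (0.063%), 32 in prepupal library 1 (0.136%) and 63 in prepupal library 2 (1.24%). Its ratio was 2.16 (0.676 to 11) for library 1 and 19.7 (6.43 to 97.9) for library 2. The interval of library 1 held 1, and the 2 libraries of 1 RNA differed by 9.10-fold. Its seed relative miR-92a-3p had 0 reads in larvae, 26 in prepupal library 1 and 6 in prepupal library 2. With a floor of 3 counts for the larval library it was 1.76-fold and 1.87-fold higher. The counting intervals began at 1.33 and 1.10.

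miR-2b-3p, one of the K box miRNAs, which target Notch pathway and cell death genes, had 2 reads in larvae, 22 in prepupal library 1 and 29 in prepupal library 2. Its ratio was 2.23 (0.548 to 19.6) for library 1 and 13.6 (3.43 to 117) for library 2. miR-970-3p had 4, 42 and 18 reads, with ratios of 2.13 (0.772 to 8.17) and 4.21 (1.39 to 17.1). For miR-92b-3p, miR-2b-3p and miR-970-3p the library 1 ratio thus lay just outside 2-fold, with an interval that held 1.

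miR-958-5p had 22 reads in larvae (0.462%), 34 in prepupal library 1 (0.145%) and 0 in prepupal library 2. It was 3.19-fold lower in library 1 (1.78 to 5.62). In library 2 it was 7.83-fold lower with the floor of 3 counts, and the counting interval began at 5.85-fold. Both prepupal libraries lay below the larval one. miR-284-5p had 9, 15 and 2 reads, with ratios of 0.338 (0.138 to 0.875) and 0.208 (0.0219 to 1.01), and the second interval reached 1.

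A count by intervals gave another set. In both prepupal libraries the interval lay above 1 for 5 arms (10.2%): let-7-5p, miR-125-3p, miR-92a-3p, miR-276a-3p and miR-282-5p. It lay below 1 for 3 arms (6.12%): miR-1-3p, miR-33-5p and miR-958-5p. For miR-31a-5p and miR-275-5p the 2 intervals lay on opposite sides of 1. Read singly, the interval excluded 1 for 15 arms in library 1 over larvae, for 28 in library 2 over larvae and for 29 between the 2 libraries of 1 RNA. These intervals rest on shares and were not computed under the other scalings. Under TMM scaling the library 1 log2 ratios moved by 0.30. The miR-1-3p ratio became 1.13 and left the set below 1, and the miR-33-5p interval on shares ended at 0.824. Without the 3 arms with the most reads the library 2 log2 ratios moved by −0.67, and the miR-92a-3p interval on shares began at 1.10.

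**Figure D3:**
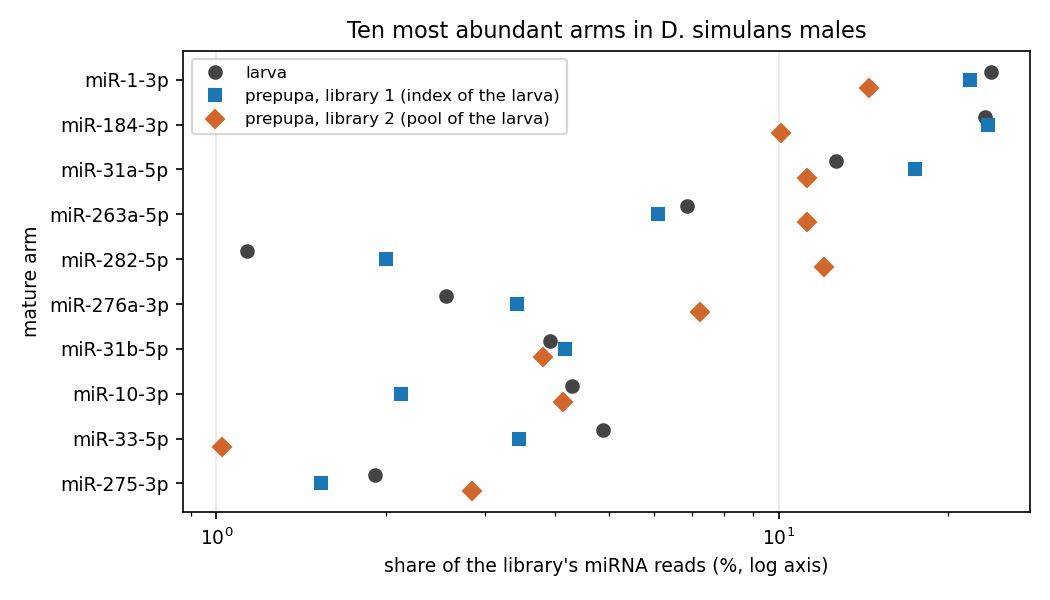
Share of a library's miRNA reads (horizontal axis, %, log axis) of the 10 mature arms with the highest mean share (vertical axis) in the larval library and both prepupal libraries of D. simulans males. For miR-184-3p the larval and first prepupal points lie together at 23.2% and 23.6% and the second prepupal point at 10.1%.

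The 10 most abundant arms held 85.3% of the reads in larvae, 85.8% in prepupal library 1 and 78.0% in prepupal library 2. miR-1-3p, the muscle miRNA, held 23.9% in larvae, 21.9% in prepupal library 1 and 14.5% in prepupal library 2. Its ratios were 0.915 (0.858 to 0.977) and 0.605 (0.551 to 0.665), and the first became 1.13 under TMM scaling and 1.09 under RLE scaling. miR-184-3p, known from the female germline and early embryo, held 23.2%, 23.6% and 10.1%. Its ratio was 1.01 (0.951 to 1.08) in library 1 and 0.435 (0.391 to 0.483) in library 2. Larvae and prepupal library 1 were alike within counting error for miR-184-3p, and the second library of the same prepupal RNA was 2.30-fold lower (2.07 to 2.56). miR-31a-5p held 12.6%, 17.5% and 11.2%, with ratios of 1.39 (1.27 to 1.51) and 0.888 (0.790 to 0.997) on opposite sides of 1. miR-31b-5p had 187, 979 and 194 reads, with ratios of 1.06 and 0.971.

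miR-263a-5p, which protects sense organ precursors from cell death, held 6.87% in larvae, 6.11% in prepupal library 1 and 11.2% in prepupal library 2, a ratio of 0.890 (0.789 to 1.01) and then of 1.63 (1.42 to 1.88). miR-275-3p, required for blood digestion in mosquitoes, had 91, 360 and 145 reads, with ratios of 0.802 (0.635 to 1.02) and 1.49 (1.14 to 1.96). For both arms the library 1 interval held 1. The miR-263a-5p ratio in library 1 became 1.10 under TMM scaling and 1.06 under RLE scaling, and that of miR-275-3p in library 2 became 0.935 without the 3 arms with the most reads.

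miR-276a-3p, which targets a dopamine receptor gene in olfactory memory, held 2.56% in larvae, 3.43% in prepupal library 1 and 7.24% in prepupal library 2. Its ratios were 1.34 (1.11 to 1.63) and 2.82 (2.30 to 3.50). miR-282-5p, a regulator of the adenylate cyclase gene rutabaga, held 1.13%, 2.0% and 12.0%. Its ratios were 1.76 (1.33 to 2.38) and 10.6 (8.01 to 14.3). For miR-282-5p the 2 libraries of 1 RNA differed by 6.01-fold, more than library 1 differed from larvae.

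miR-33-5p, a lipid metabolism miRNA made from an intron of the SREBP gene, held 4.87% in larvae, 3.46% in prepupal library 1 and 1.02% in prepupal library 2. It was 1.41-fold lower (1.21 to 1.63) in library 1 and 4.77-fold lower (3.51 to 6.57) in library 2. miR-10-3p, encoded among the Hox genes, held 4.28%, 2.13% and 4.13%. Its ratio was 0.498 (0.422 to 0.588) in library 1 and 0.964 (0.791 to 1.17) in library 2. The library 1 interval lay below 1 and the library 2 interval held 1, but that second ratio became 0.747 under TMM scaling and 0.604 without the 3 arms with the most reads, so that the contrast between the 2 libraries depended on the scaling.

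The steroid-linked list held the let-7 complex along with bantam, miR-8, miR-14 and miR-34. Of 9 of its 14 arms past the minimum, 6 of 9 lay above 1 in library 1, against 19 of 47 over all arms, and 6 of the 8 with a ratio in library 2, against 27 of 48. The median log2 ratio was 0.32 in library 1 and 0.60 in library 2, against −0.17 and 0.38 over all arms. Its summed share was 3.40% in larvae, 5.01% in prepupal library 1 and 5.27% in prepupal library 2. The summed ratio of library 2, 1.55, became 0.971 without the 3 arms with the most reads. The let-7 complex, given above, supplied 2 of the arms above 1 in each library and 7, 310 and 43 of the list's 162, 1177 and 268 reads. The list values thus partly repeat those of the complex. miR-8-3p, known for a role in insulin signalling in the fat body, had 50, 308 and 75 reads, with ratios of 1.25 (0.923 to 1.72) and 1.40 (0.969 to 2.05). Both intervals held 1, and the second ratio became 0.880 without the 3 arms with the most reads. miR-14-5p, whose hairpin acts in fat metabolism and ecdysone signalling, had 26, 90 and 5 reads, with ratios of 0.701 and 0.18. miR-14-3p had 0, 19 and 1 reads, 1.28-fold higher in library 1 with the floor of 3 counts. Its counting interval there began at 0.946 and held 1. bantam-3p, a growth miRNA that represses the cell death gene hid, had 7, 28 and 10 reads, with ratios of 0.810 and 1.34, and the second became 0.838 without the 3 arms with the most reads. bantam-5p had 4, 55 and 0 reads, with a ratio of 2.79 (1.03 to 10.6) in library 1. In library 2 the floor of 3 counts gave 0.702, and the counting interval (0 to 1.42) held 1.

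The K box and Brd box list had 6 of 20 arms past the minimum. Of these, 5 gave a ratio in library 1, 4 of them below 1, against 28 of 47 over all arms. In library 2, 4 lay past 2-fold higher, against 30.6% of all 49 arms, and 2 past 2-fold lower, against 22.4%. The medians were −0.32 and 1.86 on the log2 scale. miR-13b-3p had 12, 57 and 51 reads, with ratios of 0.962, which became 1.05 to 1.19 under the other scalings, and 3.98. miR-2a-3p had 10, 25 and 35.5 reads, not a whole number because a read was divided between miRNAs, with ratios of 0.507 and 3.32. miR-11-3p, encoded in the cell cycle gene E2f1, had 50, 197 and 7 reads, with ratios of 0.798 and 0.131 (0.0501 to 0.290). miR-11-3p, with the seed of miR-2b-3p, miR-2a-3p and miR-13b-3p, thus lay below the larval share in library 2, where those 3 lay above it.

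The nervous system list summed to 10.1% in larvae, 10.1% in prepupal library 1 and 21.5% in prepupal library 2, with medians of −0.17 and 1.10 over 6 of 20 arms. Most of its reads were of miR-263a-5p and miR-276a-3p. miR-124-3p had 6, 24 and 5 reads, with ratios of 0.810 (0.323 to 2.42) and 0.780 (0.188 to 3.07). miR-1000-5p had 1, 2 and 0 reads. The growth and metabolism list summed to 36.1%, 35.5% and 30.8%, with medians of 0.02 and −0.51 over 14 of 22 arms. Its summed ratio in library 1, 0.985, became 1.07 to 1.22 under the other scalings. The digestive tract and Malpighian tubule list summed to 9.22%, 7.88% and 14.6%, with medians of −0.32 and 0.64 over 4 of 8 arms. Its summed ratios, 0.855 and 1.58, crossed 1 under TMM scaling in library 1 (1.05) and without the top 3 arms in library 2 (0.990). miR-263a-5p gave 327 of the 439 reads of this list in larvae, 1436 of 1853 in library 1 and 570 of 741 in library 2. miR-281-5p had 1, 3 and 0 reads and miR-305-5p 0 on D. simulans hairpins, against 35, 202 and 18 and 39, 201 and 33 on D. melanogaster hairpins. The imaginal disc and epithelium list summed to 44.0%, 49.8% and 32.9%, with medians of 0.18 and 0.14 over 9 of 14 arms.

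Lists with 1 or 2 arms past the minimum held few reads beyond miR-1-3p and miR-10-3p. The muscle list was read through miR-1-3p, since miR-133 had no read. The Hox cluster summed to 4.35%, 2.20% and 4.17%, almost all of it miR-10-3p. The mir-34 cluster summed to 0.525%, 0.217% and 0.963%, the early embryo cluster to 0.168%, 0.111% and 0.138%, the testis-rich list to 0.336%, 0.281% and 0.177% and the mir-310 cluster to 0.189%, 0.179% and 0.256%. miR-991-3p gave 15, 49 and 3 reads of the testis-rich list. On D. melanogaster hairpins it gave 0 in each of the 3 libraries.

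The largest ratios between the 2 libraries of 1 prepupal RNA reached or passed the size of the largest ratios between stages. miR-2b-5p had 0 reads in larvae, 2 in prepupal library 1 and 22 in prepupal library 2, a ratio of 50.8 (12.5 to 446) between the 2 libraries. miR-34-5p, a neuronal ageing miRNA that responds to ecdysone, had 3, 3 and 20 reads, a ratio of 30.8 (9.14 to 162). Against larvae its 2 ratios lay on opposite sides of 1, at 0.203 (0.0271 to 1.51) and 6.24 (1.85 to 32.8). miR-275-5p had 3, 0 and 18 reads, 27.7-fold higher in library 2 than in library 1 with the floor of 3 counts. The counting interval began at 20.3. miR-7-5p, known from photoreceptor differentiation, had 3, 20 and 114 reads, a ratio of 26.3 (16.3 to 44.7) between the libraries. Against larvae it was 1.35 (0.401 to 7.10) in library 1 and 35.6 (11.9 to 175) in library 2. miR-92b-3p with 9.10-fold and miR-2a-3p with 6.56-fold followed. By first base of the mature arm, the median ratio of library 2 over library 1 was 1.25 over 31 arms that start with U, 0.906 over 10 with C, 0.874 over 6 with A and 0.276 over 2 with G. Whether these groups differ was not tested.

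No miRNA passed a test of stage in D. simulans. The edgeR quasi-likelihood test was fitted over the 6 RNA samples of D. simulans and D. melanogaster males, with the 2 prepupal libraries summed. Its spread came only from the D. melanogaster samples, and the lone D. simulans samples were assumed to vary like them. Of 62 arms, 0 passed an adjusted p of 0.05 in either direction (0%), the unadjusted p was under 0.05 for 1, and 0 were called by DESeq2. That 1 arm was miR-125-3p, with a fitted log2 change of 4.0 ± 1.94 (SE) and an edgeR adjusted p of 1. let-7-5p had 2.28 ± 1.72 and an edgeR adjusted p of 1. Both were above the larval share in each of the 2 prepupal libraries.

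**Figure D4:**
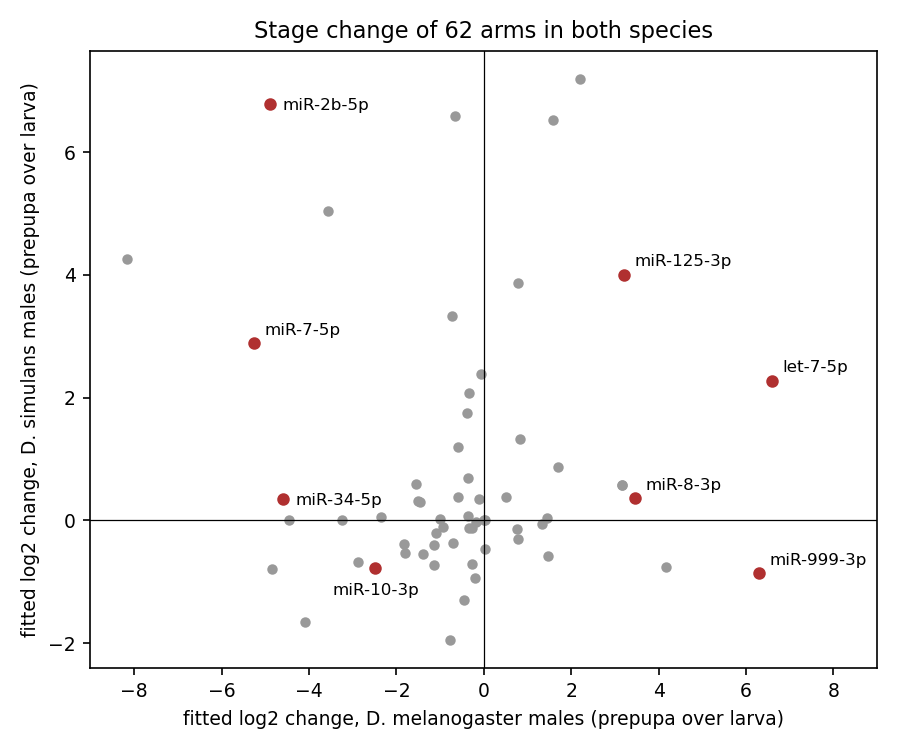
Fitted log2 stage change, prepupa minus larva, in D. simulans males (vertical axis) against that in D. melanogaster males (horizontal axis) for the 62 arms of the edgeR fit, 1 point an arm. let-7-5p lies at 2.28 in D. simulans and 6.61 in D. melanogaster, and miR-7-5p at 2.88 and −5.25.

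In D. melanogaster males the same fit called 3 arms higher (4.84%) and 4 lower (6.45%) of 62. These 7 calls became 3 on D. melanogaster hairpins, 1 under RLE scaling (let-7-5p), 2 without male prepupa replicate 1, and 0 without male larva replicate 1, male larva replicate 2, male prepupa replicate 2 or D. simulans prepupal library 1. DESeq2 called 6 arms, the fit with no filter 4, the fit with D. yakuba males added 5, and the fit without D. simulans prepupal library 2 all 7. With the replicate number as a block, which the labels do not call a batch, it was 6. let-7-5p was among the calls in each of these. It had 1 and 1 reads in D. melanogaster larvae and 53 and 77 in prepupae. Its fitted change was 6.61 ± 1.53 with an edgeR adjusted p of 0.00144. The difference between species for let-7-5p, D. simulans minus D. melanogaster, was −4.33 ± 2.22 with an edgeR adjusted p of 0.413, so that the change was not shown to differ. Over all 62 arms the test of this difference called 0 (0%), with 7 unadjusted p-values under 0.05, and DESeq2 called miR-7-5p. With the replicate number as a block, edgeR called 3 arms: miR-34-5p, miR-7-5p and miR-999-3p. Without the block the smallest edgeR adjusted p, 0.0635, belonged to miR-7-5p (8.13 ± 2.63), miR-999-3p (−7.16 ± 2.33) and miR-2b-5p (11.68 ± 3.87). miR-7-5p held 5.61% and 1.48% of the reads in D. melanogaster larvae and 0.188% and 0.0332% in prepupae, whereas in D. simulans it held 0.063% in larvae and 0.0851% and 2.24% in prepupae. miR-999-3p had 0 and 3 reads in D. melanogaster larvae and 5 and 166 in prepupae. Its D. melanogaster side thus rests mainly on male prepupa replicate 2. The D. simulans side of miR-7-5p and miR-2b-5p rests on prepupal library 2. The smallest edgeR adjusted p of the species difference was 0.219 without that library and 0.133 without prepupal library 1.

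D. yakuba males, with 1 RNA sample of each stage, gave let-7-5p 0 reads in larvae and 12 and 8 in the prepupal libraries, and miR-125-3p 0, 34 and 4. miR-10-3p, at 0.498 in the pair of D. simulans libraries with a common index, was at 0.391 (0.350 to 0.437) in that pair of D. yakuba, from 12.3% to 4.81%. miR-33-5p, at 0.709 in D. simulans, was at 0.525 (0.351 to 0.803). Other abundant arms lay on the other side of 1 in that pair. miR-1-3p was at 1.28 (1.21 to 1.36) in D. yakuba against 0.915 in D. simulans, miR-31b-5p at 0.559 (0.464 to 0.676) against 1.06, and miR-8-3p at 0.691 (0.581 to 0.825) against 1.25. In D. yakuba prepupal library 2, of the same RNA as library 1, miR-1-3p held 9.49% against 37.0% in larvae, and miR-8-3p 29.5% against 4.34%. Both arms thus lay on the other side of the larval share from library 1. miR-31b-5p (2.81% against 3.99%), miR-10-3p (1.41% against 12.3%) and miR-33-5p (3 reads, 0.211% against 0.884%) lay below larvae in both. In D. simulans the library 1 intervals of miR-31b-5p and miR-8-3p held 1, and the miR-1-3p ratio became 1.13 under TMM scaling. The differences between species were not tested.

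Counting on the hairpins of D. melanogaster raised the totals to 4851, 23945 and 5220 reads and changed which arms of some hairpins were seen. miR-305, an intestinal stem cell miRNA, shows it, and its arms are printed with the differing base in capitals. The 5p lines are the mature sequences annotated on the hairpin of each species. The 3p lines are the D. simulans read with the most reads and the stretch of the D. melanogaster hairpin at the same place.
miR-305-5p, D. simulans hairpin: auuguacuucaucagugcucug
miR-305-5p, D. melanogaster hairpin: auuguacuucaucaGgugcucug
miR-305-3p, D. simulans hairpin: cggcacaugCugaaguacacuca
miR-305-3p, D. melanogaster hairpin: cggcacaugUugaaguacacuca
miR-305-5p had 39, 201 and 33 reads of the D. simulans libraries on the D. melanogaster hairpin and 0 on the D. simulans hairpin, whose annotated arm has 22 bases against 23. These D. simulans reads thus fit the D. melanogaster form only, and the marked base of the 5p lines is a difference between the annotated hairpins. miR-305-3p had 14, 48 and 8 reads on the D. simulans hairpin and 0, 1 and 0 on the D. melanogaster one. On the D. simulans hairpin miR-305 was thus read from its 3p arm only, and on the D. melanogaster hairpin almost only from its 5p arm. The ratio of miR-305-5p was 1.04 (0.738 to 1.51) in library 1 and 0.786 (0.479 to 1.28) in library 2, and that of miR-305-3p 0.695 and 0.535. miR-281-5p, abundant in gut and Malpighian tubules, had 35, 202 and 18 reads on the D. melanogaster hairpins against 1, 3 and 0 on the D. simulans ones. Its ratio there was 1.17 (0.814 to 1.73) and 0.478 (0.255 to 0.867). miR-9b-5p, with 6, 22 and 66 reads, and miR-9c-5p, with 33, 73 and 24, were seen on D. melanogaster hairpins only.

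Most of the 16 hairpins with 20 reads in each library gave reads from almost 1 arm only in every library, so that a change of arm could be read for few of them. The intervals of the 5p share stood apart between larvae and a prepupal library for 0 of the 16 (0%), and between the 2 prepupal libraries for mir-275 (6.25%). mir-8, which gave reads from both arms, had 56.5% of them from the 5p arm in larvae, 54.2% in prepupal library 1 and 60.3% in prepupal library 2. mir-275 had 3.19%, 0% and 11%.

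**Figure D5:**
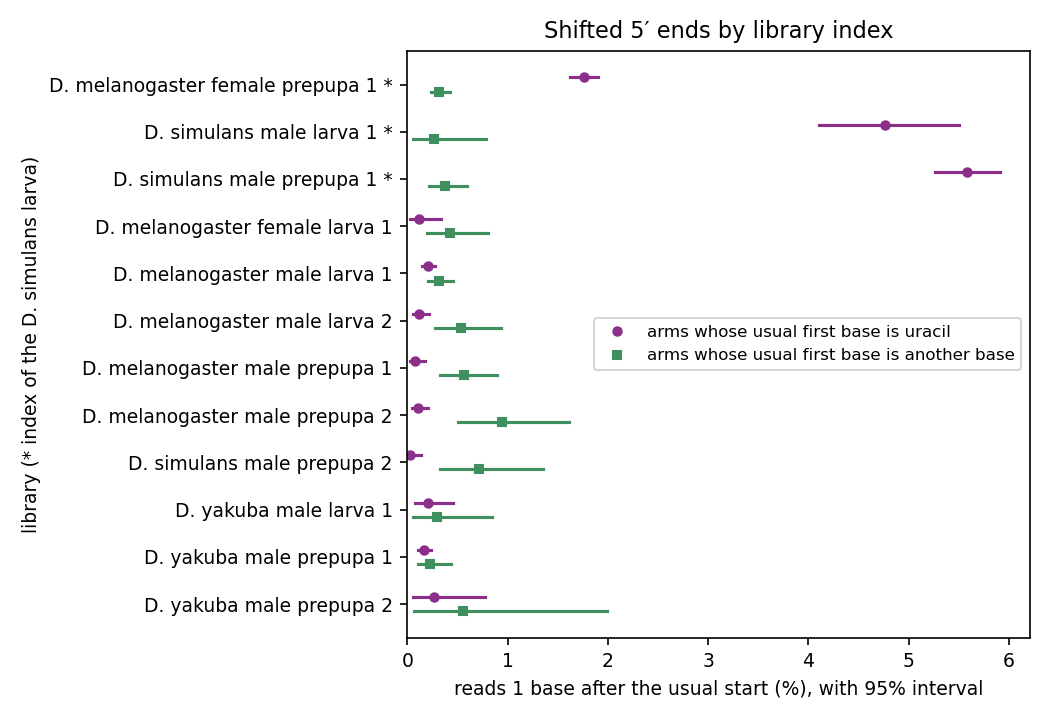
Share of reads that start 1 base after the usual start of their arm (horizontal axis, %, with exact 95% intervals) in all 12 libraries (vertical axis), for arms that start with U and for other arms. An asterisk marks libraries with the index of the D. simulans larva, which lie at 1.76% to 5.58% for U-first arms, against 0.0253% to 0.266% in the other libraries.

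The 5′ end of the reads, which sets the seed, went with the index. Of 17 arms with 20 reads in each library, the share of reads at the usual start stood apart by its intervals for 1 (5.88%) between larvae and prepupal library 1, for 4 (23.5%) between larvae and prepupal library 2, and for 5 (29.4%) between the 2 prepupal libraries. A closer count, chosen after these values were seen, took all 12 libraries on D. melanogaster hairpins, with 55 arms that start with U and 42 that do not. Reads 1 base after the usual start made up 4.77% of the reads of U-first arms in D. simulans larvae (178 of 3734, 4.11% to 5.50%), 5.58% in prepupal library 1 (1080 of 19352, 5.26% to 5.91%) and 0.0253% in prepupal library 2 (1 of 3955). The female prepupal library of D. melanogaster, which has the index of the first 2 of these and another pool, had 1.76% (603 of 34285). The 8 libraries left lay between 0.0797% and 0.266%. On arms that start with another base the shares were 0.271%, 0.373% and 0.717% in the 3 D. simulans libraries. For miR-184-3p the share was 9.12% in larvae, 11.1% in prepupal library 1 and 0% in prepupal library 2, for miR-275-3p 12.1%, 8.06% and 0%, and for miR-282-5p 5.56%, 9.36% and 0%. miR-263a-5p, which starts with A, had 0%, 0% and 0.175%. The shifted reads thus appeared in both stages under 1 index and were at or near 0 in a prepupal library of the same RNA. What made them was not tested.

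Read length differed in the same way. The share of reads of the usual length stood apart by its intervals for 0 of 17 arms (0%) between larvae and prepupal library 1, for 4 (23.5%) between larvae and prepupal library 2, and for 5 (29.4%) between the 2 prepupal libraries. miR-275-3p had 36.3% of its reads at 23 nt in larvae, 25.3% in prepupal library 1 and 84.1% in prepupal library 2, and 40.7%, 41.9% and 9.66% at 22 nt. The female prepupal library of D. melanogaster had 28.0% at 23 nt and the other 8 libraries 58.9% to 76.1%.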

How the data were processed

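The authors aligned reads to miRBase release 15 hairpins, per the file headers, with Bowtie 0.12.5, per the submitters' processing notes. Whole-number read counts of each read sequence in each library stand in the deposited alignment texts. The deposited summary table holds expected counts, divided among loci. Neither is normalised. Counts were summed here for each mature arm from the texts; of 1740 cells compared with the summary table, 1736 lay within 1 read. The 8 columns of libraries of other series were not used.

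Shares and ratios carry exact Clopper-Pearson intervals (95%, SciPy 1.17.1), which cover counting error only, since reads have no molecular identifiers. A ratio was called past 2-fold in the same direction in both prepupal libraries, for arms with at least 20 reads summed over the 3 libraries. A count of 0 was set to a floor of 3 counts for the library. Ratios on this floor take the other count as exact, so their counting intervals reach nearer to 1 or past it.

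The fit used edgeR 4.0.16 in R 4.3.3 (TMM, filterByExpr, 4 group means, Benjamini-Hochberg), with technical libraries summed, and DESeq2 1.42.0 as an alternative. Scripts were tested on simulated data. The p-values rest on the spread between the 2 samples of each D. melanogaster group.

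Named arms were those called or called in a fit, the 10 with the highest shares, at most 4 of each list (let-7 complex, steroid-linked, muscle, K box and Brd box, nervous system, growth and metabolism, digestive tract, imaginal disc, Hox, mir-34, early embryo, testis-rich, mir-310), the 6 that differed most between the libraries of 1 RNA, and main arms of the steroid-linked list. Arms named for their intervals, seeds, hairpins or read ends were chosen after their values were seen. The libraries and lists were chosen with earlier results of these data known. The alternatives were other scalings, other minimums and folds, other hairpins, unique reads, the summary counts, each library left out, DESeq2, no filter, D. yakuba added and the replicate block. The count of shifted 5′ ends was added after seeing the data.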

Additional observations from a re-analysis of the deposited data

Results flagged for a closer look

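Reads with an A added after the 3′ end of the mature sequence were seen for 4 miRNAs in the deposited alignments and lay outside the comparisons. They are given as a percent of the reads of the mature sequence with and without the added A. All but that of miR-31a in prepupal library 2 were above the limit that a count of 0 allows. miR-1 had 1.95% in D. simulans larvae, 2.22% in prepupal library 1 and 2.11% in prepupal library 2. miR-184 had 1.45%, 1.18% and 1.26%. For both, the 3 intervals overlapped, and the shares of the 2 stages did not differ beyond counting error. miR-9a had 8.16% (4 reads), 7.98% (17 reads) and 19.2% (10 reads), with intervals of 2.27% to 19.6%, 4.72% to 12.5% and 9.63% to 32.5%. miR-31a had 3.07% in larvae (5 reads) and 1.37% in prepupal library 1 (16 reads). In prepupal library 2 it had 1 read, which lies under the limit. A U added at the same place cannot be told apart from the first base of the 3′ adaptor and is not given.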

How the results depend on the processing

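The count of 7 arms past 2-fold in both prepupal libraries became 2 with at least 100 reads and 2 at 4-fold, in both cases let-7-5p and miR-125-3p, and 11 at 1.5-fold. Leaving out a prepupal library gave 11 to 26 arms. The 25 arms past 2-fold between the libraries of 1 RNA became 12 with at least 100 reads and 40 with no minimum. Against shares, the log2 ratios of libraries 1 and 2 over larvae moved by 0.30 and −0.37 under TMM scaling, by 0.25 and −0.13 under RLE scaling, and by 0.12 and −0.67 without the 3 arms with the most reads. The ratios of named arms gave 395 values under the alternatives, of which 37 lay outside the counting interval. Of all 395, 15 crossed 1, each under another scaling. The largest shift of these scalings was −0.67 on the log2 scale, less than a 2-fold ratio. The 7 arms past 2-fold thus could not cross 1 under them, and this count does not test those arms. The fitted stage change of let-7-5p lay between 2.16 and 2.46 over the alternatives (edgeR or DESeq2 adjusted p 0.708 to 1) and that of miR-125-3p between 2.71 and 4.30 (0.741 to 1). The stage fit called 0 arms under each alternative run. The difference between species went from 0 calls to 1 with DESeq2.

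Replicate numbers of D. melanogaster males go with the pool by their titles, but the labels do not call the number a batch, and the D. simulans numbers do not follow the pool. Deviations of same-numbered D. melanogaster samples correlated with r = 0.701 over 42 arms. With the number as a replicate block, the difference between species had 3 calls, miR-34-5p, miR-7-5p and miR-999-3p, and the stage fit 0. The adjusted p of miR-7-5p ran from 2.03e-05 to 0.967 over all alternatives.

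The larval library has 4762 reads, so that arms under 0.0630% there can be missed. Each stage has 1 RNA sample, and the 2 libraries of 1 RNA differed beyond counting error for 29 of 49 arms.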
